A study of Mus musculus with 22 samples.

Results

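The genes described here are 10 genes of acetylcholine signalling, chosen by name with earlier results of these data known. They were found by Ensembl gene identifier among 39179 gene identifiers counted in 22 mouse RNA-seq libraries. They are the muscarinic receptors *Chrm1*, *Chrm2*, *Chrm3*, *Chrm4* and *Chrm5*, the nicotinic receptor subunits *Chrna4* and *Chrnb2*, the acetylcholine-synthesising enzyme *Chat*, the choline transporter *Slc5a7* and the acetylcholine-degrading enzyme *Ache*. The study compared wild type (WT) with *Phf8* knockout (KO) samples, all on a B6x129SvJ background. *Phf8* is an X-linked gene for a histone demethylase, and the KO allele lacks exons 7 and 8, removed by Cre recombination between loxP sites placed by targeting in V6.5 embryonic stem cells (ESCs), of which single colonies were picked and expanded. ESCs (2 WT and 2 KO) had grown out of blastocysts and were kept on gelatin or feeder cells, and neural progenitor cells (NPCs, 3 WT and 3 KO) came from E16.5 embryos and grew as a monolayer. Prefrontal cortex (PFC, 3 WT and 3 KO) and ventral striatum (STR, 3 WT and 3 KO) were dissected from mice aged 2 months. The labels do not say which libraries came from the same animal or culture, so p-values measure the spread between these libraries, which may be technical in part.

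Acetylcholine is made from choline and acetyl-CoA by choline acetyltransferase (*Chat*), broken down in the synaptic cleft by acetylcholinesterase (*Ache*), and its choline is taken back up by the high-affinity transporter *Slc5a7*. In the striatum the main source is a sparse population of large cholinergic interneurons, whereas the cortex receives most of its cholinergic fibres from cell bodies in the basal forebrain. The M1, M3 and M5 receptors (*Chrm1*, *Chrm3*, *Chrm5*) couple mainly to Gq and phospholipase C, the M2 and M4 receptors (*Chrm2*, *Chrm4*) couple mainly to Gi and lower cyclic AMP, and *Chrna4* with *Chrnb2* forms the most common high-affinity nicotinic channel of the brain. A tissue library holds the RNA of cell bodies in the dissected piece, so fibres that arrive from elsewhere bring little of the RNA of their genes.

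Between 5898286 and 15539811 reads per library were counted on genes. *Phf8* itself (ENSMUSG00000041229) lay at 38.4 to 70.3 CPM, the usual unit of counts scaled to library size (here with TMM scaling), in WT and at 13.4 to 22.2 in KO libraries, with no overlap in any tissue. The deletion leaves the other exons in place, on which reads can still be counted. Markers leaned the way of the labelled regions: all 10 striatal projection neuron markers were lower in PFC than in STR, and 6 of 8 cortical projection neuron markers were higher. The test, described below, called 19.9% of all tested genes lower and 19.8% higher. The 8 cortical markers still summed to 442 to 608 CPM in WT and 156 to 493 in KO STR, against 1030 to 1210 and 1160 to 1240 in PFC. The part of this in the regional differences was not tested. STR KO replicate 1 stood apart, with 206 CPM summed over 10 hypothalamus markers. KO replicates 2 and 3 had 37.6 and 27.7, also above the 16.4 to 21.8 of the WT STR libraries. Replicate 2 of both NPC genotypes had 222 (WT) and 422 (KO) CPM of 8 oligodendrocyte markers against 1960 to 3250 in the other 4. Replicate 2 of both ESC genotypes had 3580 (WT) and 4380 (KO) CPM of 5 fibroblast markers against 162 and 151 in replicate 1.

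Most of the cholinergic genes differed between the 2 brain regions, and genes of the same role did not always lean the same way. The presynaptic genes *Chat* and *Slc5a7* and the M5 receptor gene were almost confined to STR among the brain libraries, *Ache* and *Chrm4* were moderately higher in STR, *Chrm3* was about a factor of 4.4 higher in PFC, and *Chrm1*, *Chrm2* and *Chrna4* were modestly higher in PFC. Levels between genes are given as RPKM, the CPM with TMM-scaled library sizes divided by the exon length in kilobases. *Chat* and *Chrm5* passed the expression filter only through their STR libraries, so for these genes a difference was required by the filter itself, and their levels are a description. By the quasi-likelihood test of edgeR over the 12 brain libraries, 7 of the other 8 genes had a false discovery rate (FDR, adjusted over all 16028 genes tested) under 0.05, 4 higher and 3 lower in PFC, whereas 39.8% of all tested genes did (19.8% higher and 19.9% lower). The libraries of the regions did not overlap for 5 of the 8 genes, against 21.6% of all genes. The median log2 difference, PFC minus STR, was 0.14 over the 8 genes and -0.016 over all genes. In such tissue samples, fewer cells of a type and less RNA per cell cannot be told apart.

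**Figure D1:**
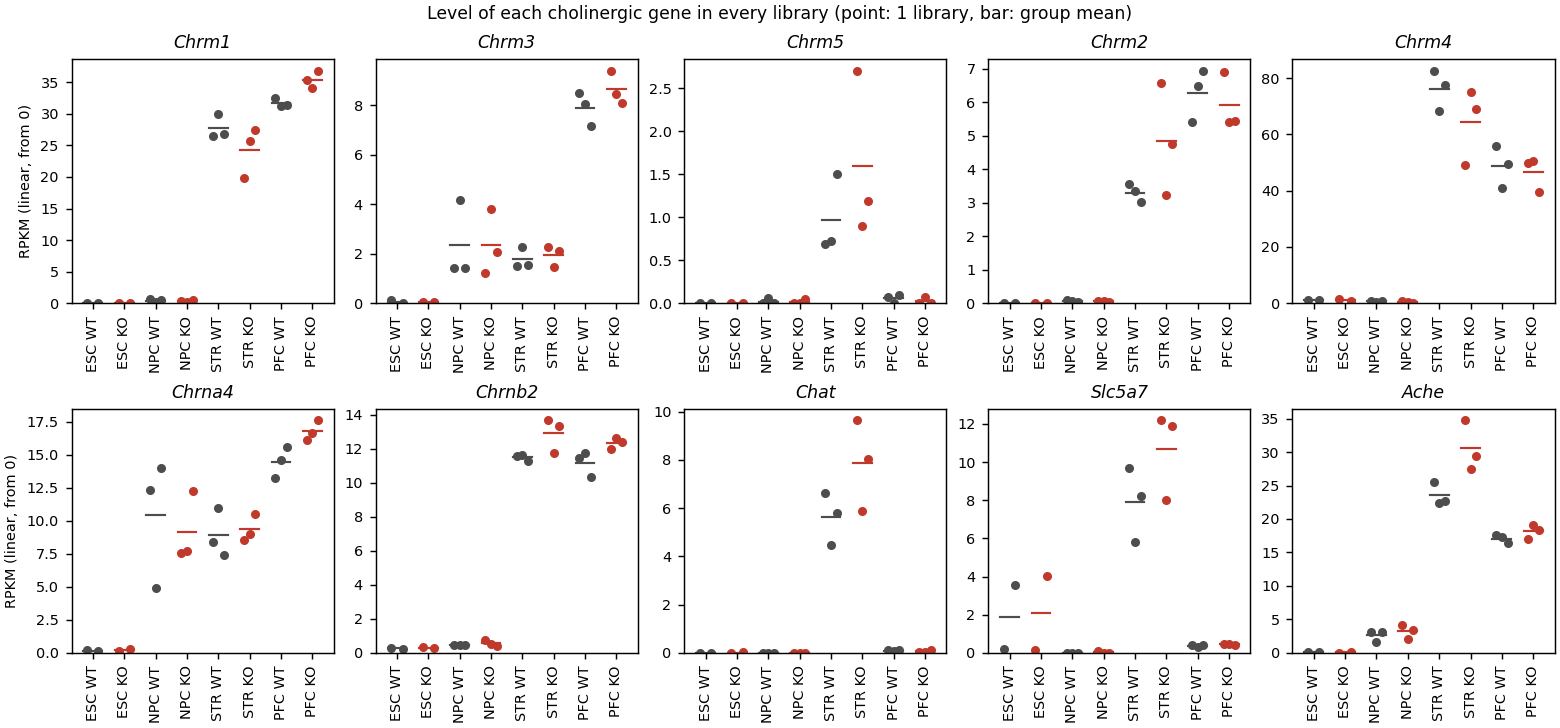
RPKM of each of the 10 cholinergic genes (vertical axes, linear and starting at 0, on a separate scale for each gene) in all 22 libraries by tissue and genotype (WT gray, KO red), with 1 point per library and a bar at each group mean. *Chat* and *Chrm5* rise above 0.5 RPKM only in STR, while *Chrnb2* is level between STR and PFC.

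*Chat* encodes the enzyme whose presence defines a cholinergic neuron. Its RPKM was 6.63, 4.47 and 5.82 in the 3 WT and 9.65, 5.90 and 8.02 in the 3 KO STR libraries. In PFC it had 5, 3 and 3 counts in WT and 1, 2 and 5 in KO, or 0.118 RPKM and less in WT and 0.130 and less in KO. All 6 STR libraries were far above all 6 PFC libraries. Summed over libraries there were 1678 counts in STR and 19 in PFC, a ratio of 88.4 after scaling (95% exact interval 56.4 to 147, counting error only). *Chat* had no count in any of the 6 NPC libraries, which allows up to 0.0361 CPM over their summed depth (without TMM scaling), and a single count in 1 of the 4 ESC libraries.

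*Slc5a7*, whose uptake of choline limits the rate of acetylcholine synthesis, followed *Chat* in the brain at a higher floor. Its RPKM was 9.70, 5.82 and 8.23 in WT STR and 12.2, 8.01 and 11.9 in KO STR, against 0.392, 0.311 and 0.387 in WT PFC and 0.443, 0.467 and 0.412 in KO PFC. The regions did not overlap, and the log2 difference, PFC minus STR, was -4.55 ± 0.17 (SE, FDR 5.3e-11). The 119 PFC counts against 2775 in STR gave a scaled ratio of 23.3 (19.4 to 28.3, same interval). Per length, the ratio of *Chat* to *Slc5a7* lay between 0.675 and 0.792 in the 6 STR libraries and between 0.0545 and 0.316 in the 6 PFC libraries, so relative to *Chat* more *Slc5a7* was counted in PFC. Of the other cholinergic neuron markers, 6 are used here (*Lhx8*, *Isl1*, *Gbx1*, *Gbx2*, *Ngfr* and *Zic4*). Their sum was 74.4 to 170 CPM in STR and 6.25 to 11.6 in PFC. *Ngfr* and *Zic4* were lower in PFC at an FDR under 0.05, and the other 4 passed the filter only through STR. The vesicular transporter *Slc18a3*, which lies within the span of *Chat* on the same strand, is not analysed here.

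Since *Chat* and *Slc5a7* are the presynaptic pair, far higher in STR than in PFC, and *Chrm4* is the member with the highest level per length, the bases just before the start of these 3 genes are shown, from RefSeq on GRCm38.p6, 5′ to 3′ in the direction of transcription and only as far as they lie outside the gene's exons in GENCODE M21. They are chr14:32465990-32466159 (minus strand) for *Chat*, chr17:54299035-54299284 (minus strand) for *Slc5a7* and chr2:91921939-91922188 (plus strand) for *Chrm4*. Capitals mark the E-box CAGCTG in *Chat* and the reverse complement of CAGCACC, the left part of the RE1 motif of the repressor REST, in *Chrm4*.
Chat: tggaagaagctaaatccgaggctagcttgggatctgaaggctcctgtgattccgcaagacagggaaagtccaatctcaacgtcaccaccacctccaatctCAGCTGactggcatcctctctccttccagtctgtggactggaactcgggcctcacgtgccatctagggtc
Slc5a7: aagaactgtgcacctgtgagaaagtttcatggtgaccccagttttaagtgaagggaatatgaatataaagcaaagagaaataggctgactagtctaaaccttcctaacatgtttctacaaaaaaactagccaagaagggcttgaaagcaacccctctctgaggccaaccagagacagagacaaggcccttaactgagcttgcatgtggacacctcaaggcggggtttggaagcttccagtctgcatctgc
Chrm4: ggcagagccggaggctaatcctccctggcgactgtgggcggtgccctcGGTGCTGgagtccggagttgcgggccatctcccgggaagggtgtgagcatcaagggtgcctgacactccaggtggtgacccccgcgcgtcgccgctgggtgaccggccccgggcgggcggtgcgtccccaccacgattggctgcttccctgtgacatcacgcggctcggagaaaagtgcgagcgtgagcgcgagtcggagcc

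Both strands of the window from 250 bases before to 50 bases after the start were searched for CAGCACC, for GGACAGC (the right part of RE1), for CAGCTG and for the homeodomain core TAATTG. A window was given for 9 of the 10 genes (none for *Chrm1*). The E-box began 150 bases before the RefSeq start of *Chat*, and the RE1 left part, on the minus strand, 202 bases before that of *Chrm4*. The shown *Chat* stretch ends 80 bases before its RefSeq start, where the GENCODE M21 gene begins. The RefSeq start of *Chrm4* lies before its GENCODE M21 gene model, which begins at chr2:91927249. Neither *Slc5a7* nor the other 6 genes with a window held any of the 4 motifs. Among 32817 promoters, 7.14% held CAGCACC, 6.56% GGACAGC, 16.3% CAGCTG and 8.0% TAATTG. The shown sequences also differ in composition. The *Chrm4* stretch is 70.0% G or C with 26 CpG, the *Chat* stretch 54.7% with 5 CpG over 170 bases, and the *Slc5a7* stretch 45.6% with 1 CpG.

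*Ache* was counted in every tissue. Its RPKM was 25.6, 22.4 and 22.6 in WT STR, 34.8, 27.5 and 29.5 in KO STR, 17.6, 17.2 and 16.4 in WT PFC and 17.0, 19.1 and 18.4 in KO PFC. Every STR library was above every PFC library, by a log2 difference of -0.63 ± 0.064 (PFC minus STR, FDR 1.49e-06), or 1.55-fold. The difference was far smaller than that of *Chat*. Neurons that receive acetylcholine are known to make the enzyme too. NPCs came next at 1.68 to 4.11 RPKM and ESCs last at 0.0383 to 0.0926 (2 to 5 counts), without overlap between neighbouring tissues in this order. The proline-rich membrane anchor *Prima1*, which tethers the enzyme to neuronal membranes, was lower in PFC by a log2 difference of -1.61 (FDR 1.47e-06), at 6.44 to 10.1 RPKM in STR and 2.19 to 4.2 in PFC. The related esterase *Bche*, which also hydrolyses acetylcholine, did not pass the test between the regions (log2 difference 0.07 ± 0.14, FDR 0.732). In NPCs the order of both esterases was the reverse of that in brain. The RPKM ratio of *Bche* to *Ache* was 1.65 to 9.41 in the 6 NPC libraries and 0.0291 to 0.0848 in the 12 brain libraries.

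The Gq-coupled receptor genes each had their own pattern. *Chrm1*, the main M1 receptor of forebrain projection neurons, had 26.5, 29.9 and 26.9 RPKM in WT STR, 19.9, 25.7 and 27.5 in KO STR, 32.4, 31.3 and 31.4 in WT PFC and 35.3, 34.1 and 36.8 in KO PFC. The PFC libraries were all above the STR libraries, by a log2 difference of 0.34 ± 0.068 (FDR 0.000874). In the WT libraries alone the difference was 0.17 ± 0.077 and missed the threshold (FDR 0.16), and in the KO libraries alone it was 0.51 ± 0.11 (FDR 0.00921). NPCs had 0.129 to 0.594 RPKM, and 3 counts in 1 of 4 ESC libraries were all that was seen there.

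*Chrm3*, the M3 receptor, showed the clearest PFC preference of the 10 genes. It had 8.49, 8.06 and 7.14 RPKM in WT PFC and 9.39, 8.46 and 8.09 in KO PFC against 1.51, 2.26 and 1.55 in WT STR and 2.25, 1.45 and 2.11 in KO STR. The ranges were wide apart, with a log2 difference of 2.14 ± 0.11 (FDR 1.24e-09), and it was 2.13 in each genotype taken alone. *Chrm3* was also the muscarinic gene with the highest level in NPCs, at 1.23 to 4.18 RPKM, a range that spanned the whole STR range, so NPCs and STR do not differ in this order beyond their spread.

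*Chrm5*, the M5 receptor known from midbrain dopamine neurons, was the rarest member. It had 11, 10 and 20 counts in WT STR and 39, 13 and 15 in KO STR, and 3 counts in all 6 PFC libraries together. The scaled ratio of STR to PFC was 36 (95% exact interval 12 to 177, counting error only, without the spread between libraries). It is a description, since the gene passed the filter only through STR. STR KO replicate 1, the library with the high hypothalamus sum, held 39 of the 108 STR counts. NPCs gave 2 counts in 6 libraries and ESCs none in 4, which allows up to 0.0596 CPM over the summed depth. The GENCODE M21 gene model of *Chrm5*, like that of *Chrm4*, holds only its coding length, by which RPKM was divided. The reads were counted on an earlier Ensembl annotation. Whether reads on untranslated exons of these 2 genes were counted is not known here, and if so their RPKM is too high.

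Of the Gi-coupled pair, *Chrm4* was the most abundant member per length, taken as its coding length alone, and leaned to STR, whereas *Chrm2* leaned to PFC. *Chrm4*, the M4 receptor of striatal projection neurons and of cholinergic terminals, had 82.7, 68.4 and 77.7 RPKM in WT STR and 49.1, 75 and 69.2 in KO STR, against 55.9, 40.9 and 49.4 in WT PFC and 49.7, 50.7 and 39.4 in KO PFC. The WT libraries of the regions were separate, but STR KO replicate 1 lay within the PFC range. The log2 difference was -0.58 ± 0.11 (FDR 0.000741), and in KO libraries alone it was -0.50 ± 0.16 (FDR 0.0502). *Chrm4* was the only muscarinic gene with over 3 counts in each cultured library, at 0.684 to 1.54 RPKM in ESCs and 0.221 to 0.911 in NPCs, and these ranges overlapped.

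*Chrm2*, the M2 receptor that acts as a presynaptic autoreceptor on cholinergic terminals, had 3.54, 3.34 and 3.03 RPKM in WT STR, 6.58, 3.23 and 4.75 in KO STR, 5.41, 6.47 and 6.94 in WT PFC and 6.91, 5.41 and 5.44 in KO PFC. WT libraries of the regions were separate, and the highest KO STR library, replicate 1, lay among the PFC libraries. The log2 difference was 0.58 ± 0.14 (FDR 0.00457) over all 12 libraries, 0.89 ± 0.12 in WT (FDR 0.00039) and 0.26 ± 0.23 in KO (FDR 0.446). *Chrm2* had no count in ESCs and 3 to 7 counts per NPC library.

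As a sum over the 5 receptors, muscarinic RNA per length was alike in range in the regions, at 80.5 to 115 RPKM in STR and 86.7 to 102 in PFC. The Gi-coupled pair made up 68.5 to 75% of that sum in STR and 49.9 to 59.9% in PFC. In NPCs the sum was 2.29 to 4.83 RPKM, of which *Chrm2* and *Chrm4* made up 9.1 to 33.1%. These shares depend on the exon lengths used. The GENCODE M21 models of *Chrm4* and *Chrm5* hold coding length alone, and those of the other 3 genes hold untranslated exons too. By CPM, without a length, the pair made up 36.2 to 43.5% in STR, 23.6 to 31.3% in PFC and 3.33 to 12.8% in NPCs. The shares rest mostly on *Chrm1*, *Chrm3* and *Chrm4* and are given without a test.

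Of the nicotinic subunits, *Chrna4* was higher in PFC and *Chrnb2* did not pass the test. *Chrna4*, the ligand-binding α4 subunit, had 8.41, 11 and 7.43 RPKM in WT STR, 8.50, 8.98 and 10.5 in KO STR, 13.3, 14.6 and 15.6 in WT PFC and 16.1, 16.7 and 17.6 in KO PFC. All PFC libraries were above all STR libraries, with a log2 difference of 0.75 ± 0.085 (FDR 5e-06). *Chrnb2*, its β2 partner, had 11.6, 11.7 and 11.3 RPKM in WT STR and 13.7, 11.8 and 13.3 in KO STR, against 11.5, 11.7 and 10.3 in WT PFC and 12, 12.6 and 12.4 in KO PFC. It is the member that did not pass the test (log2 difference -0.07 ± 0.050, FDR 0.265). Of the exon length of *Chrnb2*, 16.29% is shared with *Adar* on the opposite strand. The strand setting of the brain counts is not given in the sources used here. Whether reads on the shared bases were assigned by strand or left out as ambiguous is therefore not known.

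In NPCs the subunits were far out of step. NPCs had 12.3, 4.89 and 14.0 RPKM of *Chrna4* in WT and 7.59, 7.73 and 12.2 in KO, a range that contained the whole STR range, but only 0.427 to 0.781 RPKM of *Chrnb2*. The RPKM ratio of *Chrna4* to *Chrnb2* was 9.72 to 29.4 in NPCs, 1.16 to 1.51 in PFC, 0.621 to 0.943 in STR and 0.354 to 1.06 in ESCs, where both were under 0.35 RPKM. *Chrna4* in NPCs was thus at a striatal level while the subunit it usually assembles with was not.

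**Figure D2:**
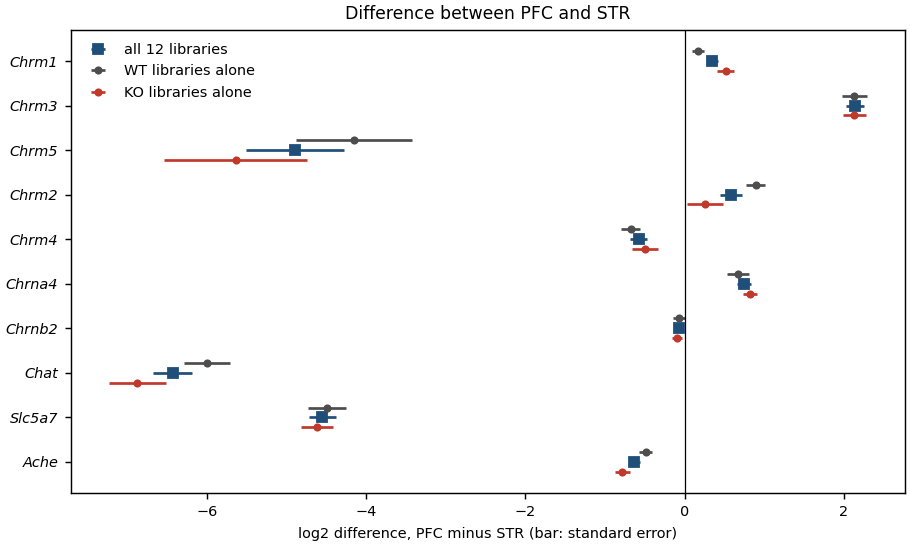
Log2 difference between PFC and STR (horizontal axis, positive where higher in PFC) for each of the 10 genes, from all 12 brain libraries (blue squares) and from WT (gray) or KO (red) libraries alone, with bars of 1 standard error. *Chat*, *Slc5a7* and *Chrm5* lie beyond -4, *Chrm3* at 2.14 is the member furthest to the right, and *Chrnb2* sits at -0.07.

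Other genes of acetylcholine signalling were counted by lists. Of 14 further nicotinic subunit genes 8 passed the filter, 4 of them (*Chrna1*, *Chrna5*, *Chrnb3* and *Chrna10*) only through the region where they were higher, so that their levels are a description. Of the other 4, 1 was lower in PFC and none higher, beside 39.8% of all genes in either direction. *Chrnb3*, an accessory subunit, had 0.441 to 1.09 RPKM in PFC and 0.0377 to 0.0945 in STR, and *Chrna5*, the accessory α5 subunit that joins α4β2 channels, had 1.84 to 3.85 and 0.284 to 0.483. *Chrna1*, the muscle-type α1 subunit, had 0.285 to 0.503 RPKM in PFC and 0.0289 to 0.185 in STR. *Chrna10* was counted almost only in STR, with 92 counts against 2 in PFC. *Chrna2*, tested in each region, was lower in PFC by a log2 difference of -1.67 (FDR 0.000205). *Chrna7*, the subunit of the homomeric channel, did not pass (0.20 ± 0.15, FDR 0.329). The median over these 4 was -0.35, beside -0.016 over all genes.

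Of 8 further genes of choline and acetylcholine handling, *Slc44a1* (0.21, FDR 0.00848), a choline transporter of most cells, and *Pcyt1a* (0.15, FDR 0.0352), of phosphatidylcholine synthesis, were higher in PFC and *Prima1* was lower, and the other 5 did not pass (39.8% of all genes did). Among 10 genes of receptor assembly and modulation, 5 were higher in PFC and 3 lower, beside 19.8% and 19.9% of all genes, with a median of 0.23. The largest differences were in *Nrn1* (1.58, FDR 2.04e-07), *Ly6e* (0.71, FDR 3.97e-07), *Lypd1* (-0.71, FDR 9.89e-05) and *Lynx1* (0.55, FDR 4.24e-06). *Lynx1*, *Ly6e* and *Lypd1* belong to the Ly6 family, whose members bind nicotinic receptors.

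Of 21 genes downstream of muscarinic receptors, 10 were higher and 3 lower in PFC, beside the same shares of all genes, with a median of 0.20. *Adcy1*, a calcium-stimulated adenylyl cyclase, was higher in PFC (1.63, FDR 3.39e-07) and *Adcy5*, the main adenylyl cyclase of striatal neurons, lower (-1.64, FDR 1.35e-11). The inward rectifier channel genes *Kcnj6* (1.6, FDR 9.52e-05) and *Kcnj9* (1.22, FDR 8.93e-10), opened by Gi-coupled receptors, were higher in PFC. All these genes also act outside cholinergic signalling.

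**Figure D3:**
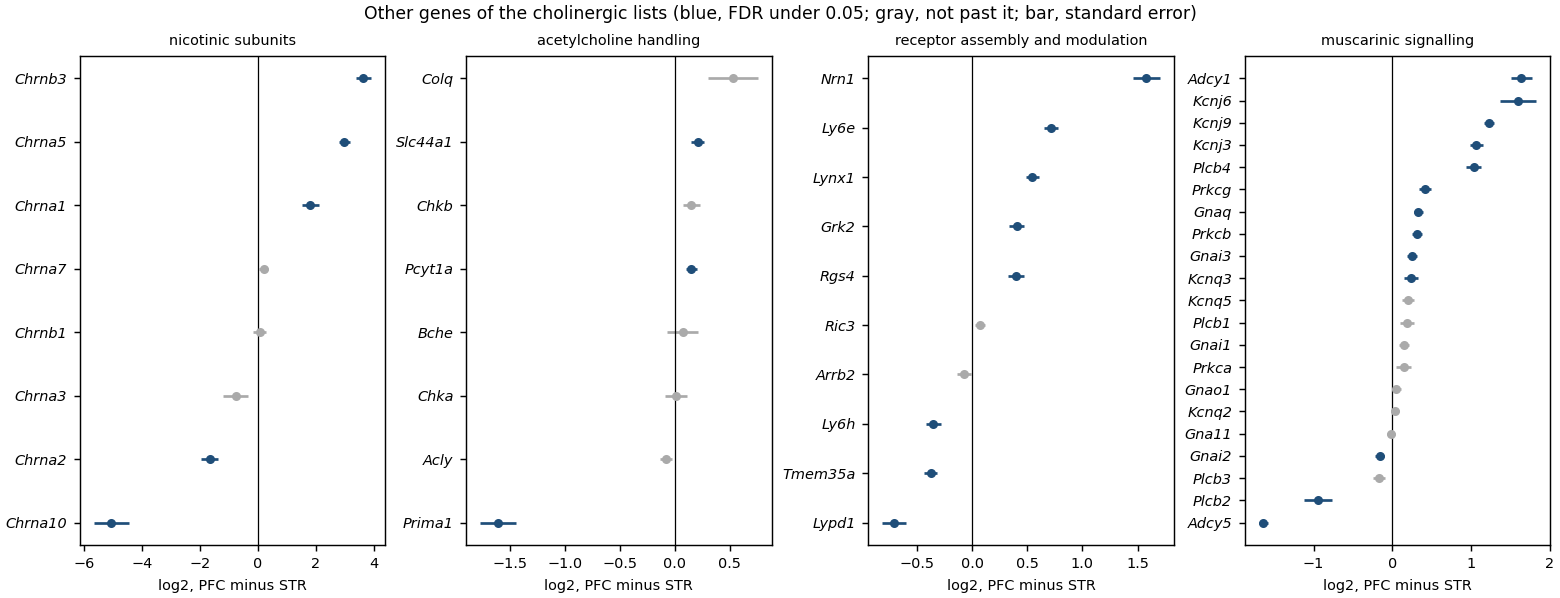
Log2 difference between PFC and STR (horizontal axes, on a separate scale per list, with bars of 1 standard error) for the tested genes of 4 lists of cholinergic genes, blue where the FDR is under 0.05 and gray where it is not. *Chrnb3* and *Chrna5* stand at the PFC end of the nicotinic subunits and *Chrna10* and *Chrna2* at the STR end. *Chrna1*, *Chrna5*, *Chrnb3* and *Chrna10* passed the filter only through 1 region.

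The comparison of KO with WT asks whether loss of *Phf8* changed these genes within a region. In PFC no member passed the test, while 0.638% of the 15364 tested genes did. Of the 10 genes, 8 were tested there, and *Chat* and *Chrm5* were too low. Under an unadjusted threshold of 0.05, 1 member passed in edgeR (*Chrna4*), beside 11.2% of all genes, and no member passed an FDR of 0.05 in DESeq2 or edgeR's exact test. The KO libraries were all above the WT libraries for *Chrm1*, *Chrna4*, *Chrnb2* and *Slc5a7*, that is for 4 of 8, where 7.74% of all genes did not overlap with KO higher. The log2 differences, KO minus WT, were 0.15 ± 0.069 for *Chrm1* (FDR 0.459), 0.21 ± 0.083 for *Chrna4* (FDR 0.365), 0.13 ± 0.072 for *Chrnb2* (FDR 0.561) and 0.29 ± 0.25 for *Slc5a7* (FDR 0.754), none past the threshold. *Chrm2*, *Chrm3*, *Chrm4* and *Ache* lay within ±0.116 with overlapping groups. The sum of 8 oligodendrocyte markers was 1840 to 2400 CPM in WT and 1480 to 1580 in KO PFC libraries, with 5 of the 8 lower in KO at an FDR under 0.05, and the sum of 5 pan-neuronal markers was 1480 to 2130 and 1750 to 1870. The part of this in the differences of the neuronal receptor genes was not tested.

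Of the cholinergic lists, 1 of 10 tested genes of receptor assembly and modulation was called in PFC, beside 0.638% of all genes. None was called among 7 further nicotinic subunits, 8 handling genes and 21 genes downstream of muscarinic receptors. The called gene was *Lypd1*, which encodes a membrane-anchored protein that binds nicotinic receptors. It had 7.09, 5.50 and 7.43 RPKM in WT and 9.1, 10.4 and 11 in KO. All KO libraries were higher, with a log2 difference of 0.61 ± 0.12 (FDR 0.0432). With all 6 libraries its FDR was 0.000968 in DESeq2 and 0.000517 in edgeR's exact test, which called 196 and 375 genes in PFC against 98. By the quasi-likelihood test, the call was lost in 5 of the 6 fits that left out 1 library, all but that without WT replicate 3. The log2 difference was 0.48 to 0.70 and the FDR 0.034 to 0.298 over these 6 fits. Named after their values were seen, *Chrna7* (0.48 ± 0.15, FDR 0.188) was the nicotinic subunit nearest to the threshold and *Slc44a1* (-0.33 ± 0.073, FDR 0.0691) the nearest handling gene. Oligodendrocytes are known to make *Slc44a1* too, and it was lower together with the oligodendrocyte sum, whose part in it was not tested.

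In STR the quasi-likelihood test of edgeR called no gene at all (0 of 15476, 0%), with 8.70% at an unadjusted p under 0.05. DESeq2 called 53 genes and edgeR's exact test 104, with no member among them. All 10 members were tested. *Chat*, *Chrm2*, *Chrnb2* and *Ache* had an unadjusted p under 0.05, all higher in KO, and 5.67% of all genes did so in that direction. *Ache* had the smallest p (log2 difference 0.39 ± 0.0996, FDR 0.411), and its 3 KO libraries were all above its 3 WT libraries. The exact test of edgeR gave it an FDR of 0.0657 and DESeq2 0.117. *Chat* was at 0.48 ± 0.19 (FDR 0.535), *Slc5a7* at 0.44 ± 0.21 (FDR 0.613) and *Chrm2* at 0.56 ± 0.23 (FDR 0.536), each with overlapping groups. *Chrnb2*, at 0.18 ± 0.076 (FDR 0.562), did not overlap. Groups did not overlap for 2 of 10 members, with KO higher, where 7.57% of all genes did so.

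The STR differences moved with other measures. These 6 cholinergic neuron markers outside the members summed to 94.7, 74.4 and 89.1 CPM in WT and to 170, 126 and 132 in KO, without overlap. *Lhx8*, a transcription factor of cholinergic neurons, had 7.84, 5.64 and 7.21 RPKM in WT and 18.4, 10.9 and 13.4 in KO (log2 difference 1.05 ± 0.20, FDR 0.291). The RPKM ratio of *Chat* to *Lhx8* was 0.792 to 0.846 in WT and 0.526 to 0.599 in KO, so *Lhx8* differed more than *Chat* did. The septum and basal forebrain markers, 7 genes of which *Lhx8* and *Gbx1* are also in the cholinergic list, summed to 136 to 184 CPM in WT and 201 to 258 in KO. STR KO replicate 1 had the highest hypothalamus sum, the lowest sum of 10 striatal projection neuron markers (1880 against 2150 to 2560 CPM in the other 5) and the lowest sum of 8 cortical markers (156 against 426 to 608), and it had the highest *Chat*, *Slc5a7*, *Ache*, *Chrm2* and *Chrm5* of all STR libraries and the lowest *Chrm1* and *Chrm4*.

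Without STR KO replicate 1, *Ache* was at 0.27 (FDR 0.917), *Chat* at 0.30, *Slc5a7* at 0.32, *Chrm2* at 0.26, *Chrnb2* at 0.13, *Chrm1* at -0.063, *Chrm4* at -0.078 and *Chrm5* at 0.11. Of the 10 members, 1 (*Ache*) then had an unadjusted p under 0.05, beside 4.99% of all genes. The sum of the 6 marker genes still did not overlap between genotypes, at 126 and 132 CPM in the remaining KO libraries. Nor did the hypothalamus sum, at 37.6 and 27.7 CPM in these KO libraries and 16.4 to 21.8 in WT. How far the dissected tissue accounts for the higher cholinergic genes was not tested.

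**Figure D4:**
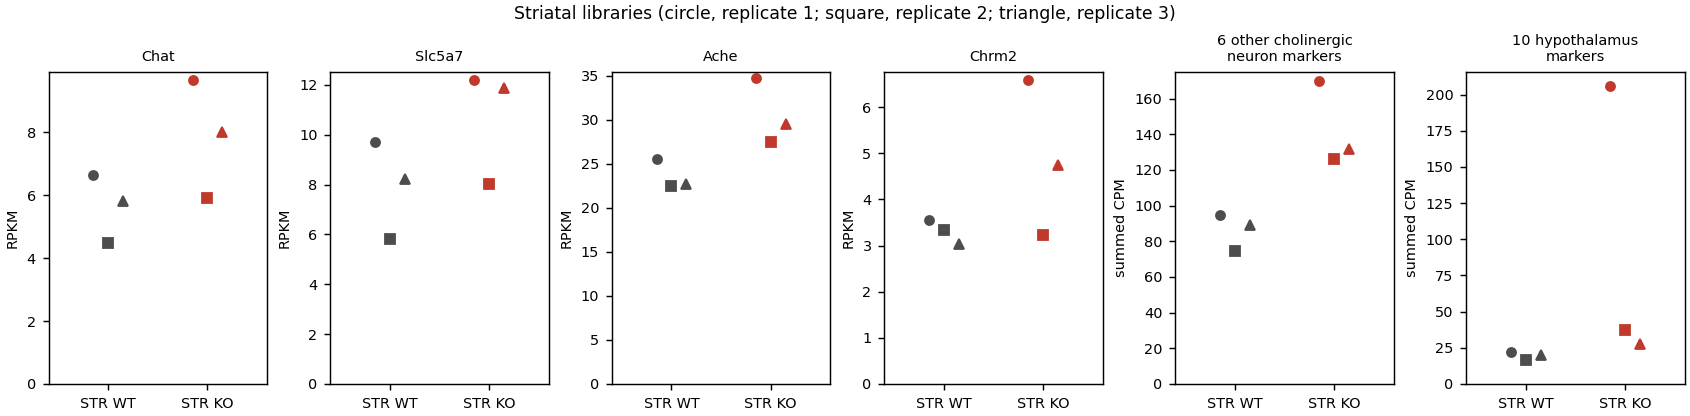
RPKM of *Chat*, *Slc5a7*, *Ache* and *Chrm2* and summed CPM of 6 other cholinergic neuron markers and of 10 hypothalamus markers (vertical axes, linear from 0) in each of the 3 WT (gray) and 3 KO (red) striatal libraries, with a symbol for each replicate number. KO replicate 1 is the highest point of every panel, and the 6 markers lie at 74.4 to 94.7 CPM in WT and 126 to 170 in KO.

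The genotype by region interaction asks whether the KO difference was unlike in PFC and STR. No member passed the quasi-likelihood test of edgeR, where 1 of 16028 genes did (0.00624%), and none passed in DESeq2, which called 19. *Chrm1* (0.36 ± 0.14, FDR 0.683), *Chrm2* (-0.63 ± 0.28, FDR 0.755) and *Ache* (-0.28 ± 0.13, FDR 0.755) had an unadjusted p under 0.05, as 6.41% of all genes did. The KO difference of *Chrm1* was positive in PFC and negative in STR, and those of *Chrm2* and *Ache* were higher in STR. The differences between genotypes in the regional contrast of *Chrm1*, *Chrm2* and *Chrm4* given above are therefore not shown to differ between WT and KO.

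In NPCs, 6 members were tested and none passed, with 0.00697% of all genes past the threshold (1 of 14351) and 3.03% at an unadjusted p under 0.05, no member among them. DESeq2 called 5 genes and no member. The differences lay between -0.51 ± 0.50 (*Chrm4*) and 0.32 ± 0.26 (*Chrnb2*), and groups of all 6 overlapped, where 8.33% of all genes did not. Within the 3 pairs of the same replicate number, *Ache* was higher in KO in each (4.11 against 3.17, 2.13 against 1.68 and 3.37 against 3.11 RPKM), with a log2 difference of 0.27 and an FDR of 0.501 with the replicate block. The other 5 members did not keep 1 direction over the pairs. For several genes the libraries of replicate 2 lay apart in both genotypes. *Chrm3* was 4.18 (WT) and 3.81 (KO) RPKM in replicate 2 and 1.23 to 2.06 in the other 4 libraries, while *Ache* was 1.68 and 2.13 against 3.11 to 4.11 and *Chrm1* 0.129 and 0.171 against 0.327 to 0.594. *Bche* was 15.9 and 13.9 RPKM in replicate 2 and 5.15 to 8.37 in the others. These libraries are the pair with the low oligodendrocyte sum, whose part in the levels was not tested. Leaving out replicate 2 of both genotypes, which was chosen after seeing the data, again called no member and no gene.

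In ESCs, 4 members were tested and none passed, as for all 15080 genes (0%, with 1.13% at an unadjusted p under 0.05 and none of the members), and DESeq2 called 3 genes and no member. These fits did not pair the replicates, so their spread holds the difference between replicates 1 and 2. With a replicate block, 513 genes were called and no member. Most members were near absence there, with *Chrm4* at 0.684 to 1.54 RPKM and *Chrnb2* at 0.235 to 0.348. *Slc5a7* was the exception, and its level followed the replicate. It had 10 (WT) and 11 (KO) counts in replicate 1 and 235 and 231 in replicate 2, or 3.56 and 4.03 RPKM, which is above every PFC library. *Chat* had 1 count in these 4 libraries. The fibroblast marker sum moved the same way, as given above, and so did *Lynx1* (13 and 16 counts against 151 and 126) and *Nrn1* (12 and 11 against 124 and 111), which were named after their values were seen. The part of the feeder cells in these counts was not tested.

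**Figure D5:**
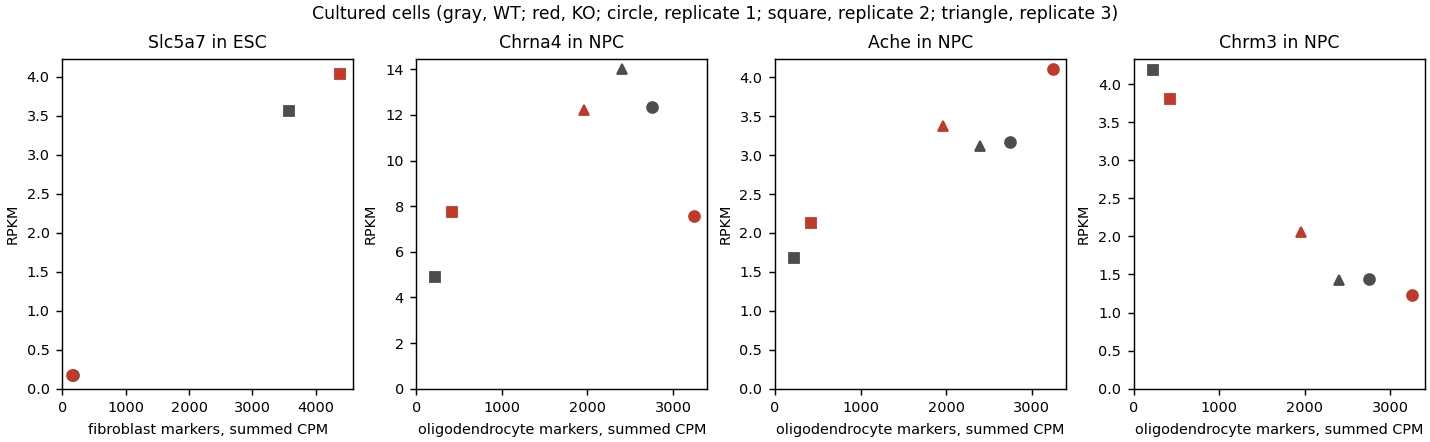
RPKM (vertical axes, linear from 0) of *Slc5a7* against the summed CPM of 5 fibroblast markers in the 4 ESC libraries, whose replicate 1 points lie on each other, and of *Chrna4*, *Ache* and *Chrm3* against the summed CPM of 8 oligodendrocyte markers in the 6 NPC libraries. Replicate 2 of both genotypes (squares) lies apart from the other libraries for *Slc5a7*, *Ache* and *Chrm3*.

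The genes with the pattern most like each member were found by Pearson correlation of log2(CPM + 0.5) over the 12 brain libraries, which share 2 regions, so that r mostly restates the regional difference and carries no p. Those nearest to *Chat* were *Lhx8* (r = 0.997), *Pbx3* (0.995) and *Slc5a7* (0.993), and those nearest to *Slc5a7* were *Dlk1* (0.995), *Six3* (0.994) and *P2ry1* (0.994). With the 4 group means removed, *Lhx8* remained nearest to *Chat* (0.95), followed by *Tcerg1l* (0.902) and *Dlk1* (0.848). *Chat* with *Slc5a7* was then at 0.615 over the same 12 libraries. In the PFC libraries among these, *Chat* had only 1 to 5 counts each, so its deviations there rest on few reads. Over the 6 STR libraries alone, without removing group means, *Chat* with *Slc5a7* had an r of 0.973. *Hdac9* (0.993) was nearest to *Chrm3*, *Cnga3* (0.984) to *Ache*, *Prss35* (0.984) to *Chrna4*, *Dtl* (0.984) to *Chrm1*, *Chodl* (0.992) to *Chrm5*, *Mbd2* (0.952) to *Chrm4*, *Nkrf* (0.948) to *Chrm2* and *Zfp687* (0.953) to *Chrnb2*.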

How the data were processed

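The authors made TruSeq RNA libraries of 22 samples, used STAR for alignment against mm10 (GRCm38) and HTSeq for counting by Ensembl gene. What they deposited is 1 table per sample of raw counts. CASAVA 1.7 is named in the submitters' processing notes. Counting was not stranded for the cultured cells, and the setting for brain is not given in the sources used here. Rows that name no gene were left out, among them reads without a unique place (43.17 to 45.53% in ESCs, 33.23 to 34.32% in NPCs, 7.62 to 8.9% in brain). Of 39179 identifiers, 37693 matched GENCODE M21, which gave names and lengths. The counting itself used an earlier Ensembl annotation, whose exons can differ. CPM and RPKM were computed here.

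Groups came from the labels. Tests used edgeR 4.0.16 in R 4.3.3 (quasi-likelihood, robust, TMM, filterByExpr, Benjamini-Hochberg FDR under 0.05), on 12 brain libraries for the regional contrast and the interaction and on each tissue alone for KO against WT. Alternatives were DESeq2 1.42.0, the exact test, other size factors and filters, a log2 difference over 1, each replicate left out and a replicate block. The code was tested on simulated data. The members and lists were chosen with earlier results of these data known. Of the cholinergic neuron markers, 1 is not reported here. Besides the members, the rule names list genes with an FDR under 0.05, at most 4 per list and comparison, or alone in a role, and exceptions are marked. Same-numbered libraries deviated together in ESCs (r = 0.876), in NPCs (0.569, 0.705 and 0.524) and, weakly, between regions within a genotype (0.143 to 0.392). Other-numbered libraries had an r of -0.559 to 0.292 in NPCs and -0.373 to 0.0751 between regions. Numbers may thus pair libraries there, though the labels do not say so. Between genotypes, same-numbered libraries did not stand out in PFC (-0.032 to 0.0546, others -0.0631 to 0.0234) or STR (-0.0215 to 0.133, others -0.264 to 0.215). With 2 ESC libraries per genotype, deviations from the group mean mirror each other, and other-numbered ESC libraries had an r of -0.876. The main fits used no pairing. No replicates agreed within sampling noise. With 2 or 3 libraries per group, their number limits precision.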

Additional observations from a re-analysis of the deposited data

How the results depend on the processing

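No alternative reversed a member's direction between PFC and STR. The 7 calls held with DESeq2, other size factors, no filter and each of the 12 libraries left out. For *Chat* and *Chrm5* the filter itself required a difference, so their fits add no support under any setting. Where at least 10 counts in every library were asked, *Chat* and *Chrm5* were not tested. Of the 7 calls, requiring a log2 difference over 1 left *Chrm3* and *Slc5a7*, WT libraries alone lost *Chrm1*, and KO libraries alone lost *Chrm2* and *Chrm4*. The replicate block changed no member's call in any comparison. The number of genes called between regions, 6374, was 1444 with a log2 difference over 1, 3791 in WT libraries alone and 5717 to 6581 with 1 library left out.

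For the interaction, 1 gene was called, 19 with DESeq2, 2 without a filter, 12 with the replicate block and 1 to 3 with 1 library left out, above 1 without STR KO replicate 1 or 3. *Chrm3* turned to -0.01 without a filter and with at least 10 counts in every library. With 1 library left out, the interaction ranged from -0.22 to 0.12 for *Chrm3*, -0.03 to 0.26 for *Chrna4*, -0.31 to 0.04 for *Slc5a7* and -0.1 to 0.01 for *Chrnb2*. For KO against WT the counts were 98 in PFC (196 with DESeq2, 379 without a filter, 18 with a log2 difference over 1, 375 with the exact test, 2 without KO replicate 2 or 3, 18 without WT replicate 2, 37 without KO replicate 1, 154 without WT replicate 1), 0 in STR (53 with DESeq2, 27 without a filter, 8 with the replicate block, 104 with the exact test, 0 to 2 with 1 left out, above 0 without WT replicate 1 or KO replicate 3), 1 in NPCs (5, 2, 3 and 2 with the same 4 settings, 0 with any library or replicate 2 left out) and 0 in ESCs (3 with DESeq2, 513 with the replicate block over 2 pairs, 2 with the exact test, 0 with 1 left out). The cause was not tested. No member was among the calls. Members that changed sign with 1 library left out ranged from -0.19 to 0.04 (*Chrm4* in PFC), -0.05 to 0.24 (*Chrna4* in STR), 0 to 0.34 (*Chrm3* in STR), -0.71 to 0.07 (*Chrm1* in NPCs), -0.52 to 0.74 (*Chrm3* in NPCs), -0.51 to 0.1 (*Chrna4* in NPCs), -3.5 to 3.6 (*Slc5a7* in ESCs), -0.5 to 0.57 (*Chrm4* in ESCs) and -0.32 to 0.92 (*Chrna4* in ESCs), all without a call. Depth limits *Chat* and *Chrm5* in PFC and most members in ESCs.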
